A study of Mus musculus with 14 samples.

Results

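The DEAD and DEAH box RNA helicases were followed here in mouse thymic lymphomas of 3 Hif1a genotypes. Members were all genes with a probe set naming that gene alone whose symbol starts with Ddx or Dhx and a digit, leaving out Ddx21, Ddx58, Dhx58 and Ddx3y, and the probe set of highest mean stood for each gene. This gave 37 members among 10254 measured genes. The tumours came from mice of mixed C57BL/6-129/SvEvTac background that all carried the p53R270H/R270H genotype, a missense change (R270H) of the p53 tumour suppressor on both alleles, the controls included. There were 5 Hif1a+/+ tumours (the controls), 5 Hif1a+/- tumours from mice heterozygous for Hif1a, the oxygen-regulated subunit of hypoxia-inducible factor 1, and 4 Hif1aKI/+ tumours with 1 knock-in allele whose sequence change the labels do not state. Animals were killed once breathing became laboured, and 1 array per tumour was hybridised, so each tumour is a biological replicate. Ages, sexes and processing dates were not given in the sources used here. The design asked which expression differences could go with the differences in tumour onset and incidence between genotypes.

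RNA helicases of these families use ATP to open short RNA duplexes or to strip proteins from RNA. The family names spell the conserved motif II of the ATPase core in single-letter amino acids. Different members act at successive points in the life of an RNA: splicing in the nucleus, assembly of ribosomal subunits in the nucleolus, export through the nuclear pore, initiation of translation, and decay in the cytoplasm. Dhx15, the mammalian counterpart of yeast Prp43, is recruited by partner proteins with a glycine-rich G-patch and takes apart spliceosomes once the spliced mRNA has left, which frees the intron lariat. Ddx3x, which helps ribosomes scan structured 5′ leaders, is encoded on the X chromosome and has a close copy on the Y chromosome.

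The values are log2 probe set summaries. Of the 37 members, 33 had a mean above 4.84, the dip between the low mode of probe sets near background and the main mode, and 30.1% of all genes lay below it. The members below it were Ddx4 and Ddx25, helicases of germ cells, Ddx60, an interferon-inducible gene, and Dhx32. T cell markers were high in every tumour: the mean of 14 such markers per tumour ran from 11.47 to 12.29. By its mean over all tumours none of the 14 was below the boundary, while both measured erythroid markers were. Array medians lay between 7.91 and 8.03 and arrays correlated with each other at 0.942 to 0.976. Precision is limited by there being 4 or 5 arrays in a group.

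Dhx15 levels were lower in Hif1aKI/+ than in Hif1a+/+ tumours and lower again in Hif1a+/- tumours, without overlap, while the median of its family overlapped between the genotypes. Dhx15 was chosen by its difference between Hif1a+/- and Hif1a+/+ tumours, so that difference is given as a description only. The Hif1a+/+ tumours 1 to 5 had log2 levels of 13.68, 13.53, 13.54, 13.64 and 13.51. The Hif1aKI/+ tumours 1, 3, 4 and 5 had 13.49, 13.44, 13.49 and 13.44. The Hif1a+/- tumours 1 to 5 had 13.29, 13.29, 13.22, 13.33 and 13.27. Every Hif1aKI/+ value thus lay below every Hif1a+/+ value and above every Hif1a+/- value. The means were 13.58 ± 0.074 (SD, n = 5), 13.46 ± 0.028 (SD, n = 4) and 13.28 ± 0.039 (SD, n = 5). Hif1a+/- tumours were lower than Hif1a+/+ tumours by 0.30 (a log2 difference of -0.30, SE 0.039), a 1.23-fold difference. In bulk tissue, fewer cells of a type and less RNA per cell cannot be told apart.

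The steps on either side of the Hif1aKI/+ tumours share arrays with the contrast that selected Dhx15, the Hif1a+/+ arrays in one case and the Hif1a+/- arrays in the other, so they are no independent support for it. Against Hif1a+/+ the Hif1aKI/+ tumours differed by -0.11 (SE 0.042), with an unadjusted p of 0.0191 and an adjusted p of 0.984 in limma over all genes. Between Hif1a+/- and Hif1aKI/+ tumours the difference was -0.18 (SE 0.042), with an unadjusted p of 0.000929 and an adjusted p of 1 in limma. Neither step passed an adjusted p of 0.05.

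**Figure D1:**
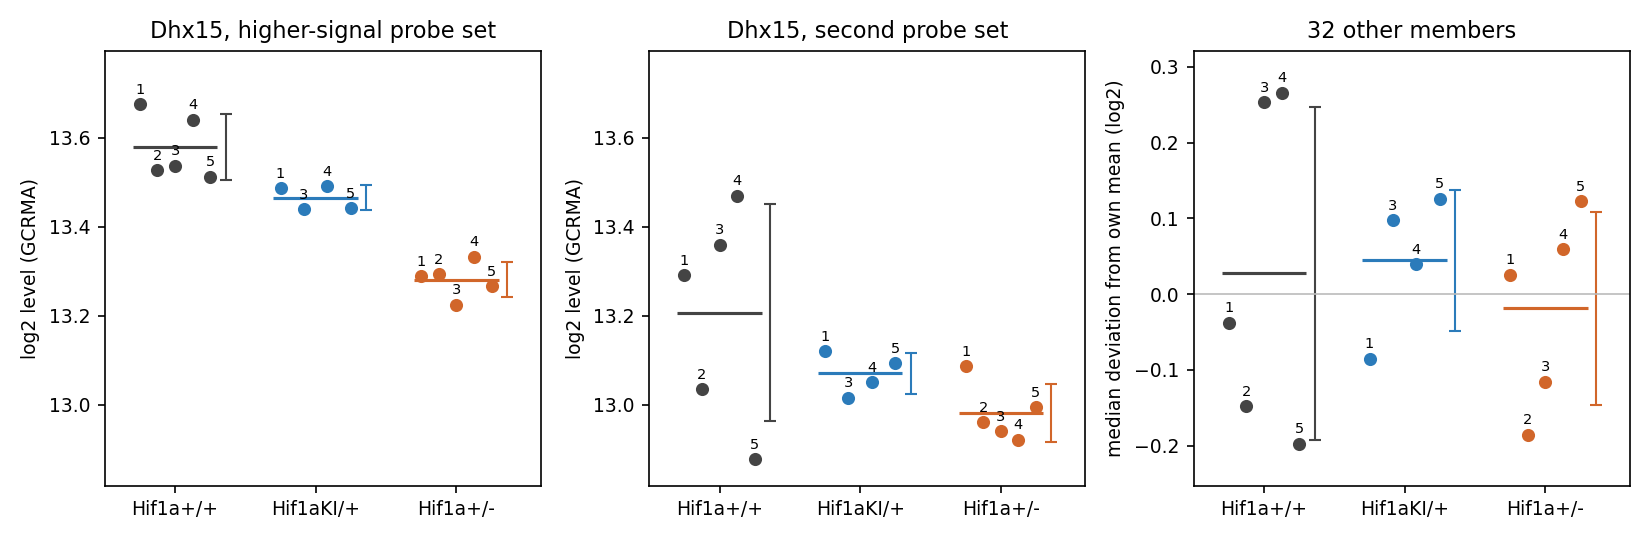
Log2 level of Dhx15 in each tumour by its higher-signal probe set (left) and its second probe set (middle), and the median deviation of the other 32 members above 4.84 from their own means (right). Numbered points are tumours, horizontal lines are genotype means and bars are SD; the left panel shows 3 separate groups, with means of 13.58, 13.46 and 13.28, and the other panels overlap.

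The second Dhx15 probe set gave the same order of means with more spread. Its values were 13.29, 13.03, 13.36, 13.47 and 12.88 in Hif1a+/+ tumours, 13.12, 13.02, 13.05 and 13.09 in Hif1aKI/+ tumours, and 13.09, 12.96, 12.94, 12.92 and 12.99 in Hif1a+/- tumours. Hif1a+/+ tumour 5 was the lowest of all 14 and the groups overlapped. The differences were -0.23 (SE 0.10) for Hif1a+/- and -0.14 (SE 0.10) for Hif1aKI/+, each against Hif1a+/+, and -0.09 (SE 0.10) between Hif1a+/- and Hif1aKI/+.

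The separation of Dhx15 came with a small spread between tumours, not with a large difference. Its SD within genotype was 0.053 at the higher-signal probe set, the lowest among the 435 genes with a mean between 13 and 14, where the median SD was 0.20. The next lowest SD in that range was 0.058, and 5 of 7169 genes above the low mode had an SD at or below that of Dhx15. Its second probe set had an SD of 0.15. Choosing Dhx15 in these same arrays can favour a small SD at its higher-signal probe set. These SD ranks are therefore a description only. Among the 33 members above the boundary the median SD was 0.35, and without Dhx15 the lowest was 0.18. By the size of its difference Dhx15 ranked 11 of 33 for Hif1a+/- against Hif1a+/+, 19 for Hif1aKI/+ against Hif1a+/+ and 16 for Hif1a+/- against Hif1aKI/+. In the first of these, Ddx10, Ddx3x, Ddx51, Ddx54 and Dhx36 had more negative differences than Dhx15.

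**Figure D2:**
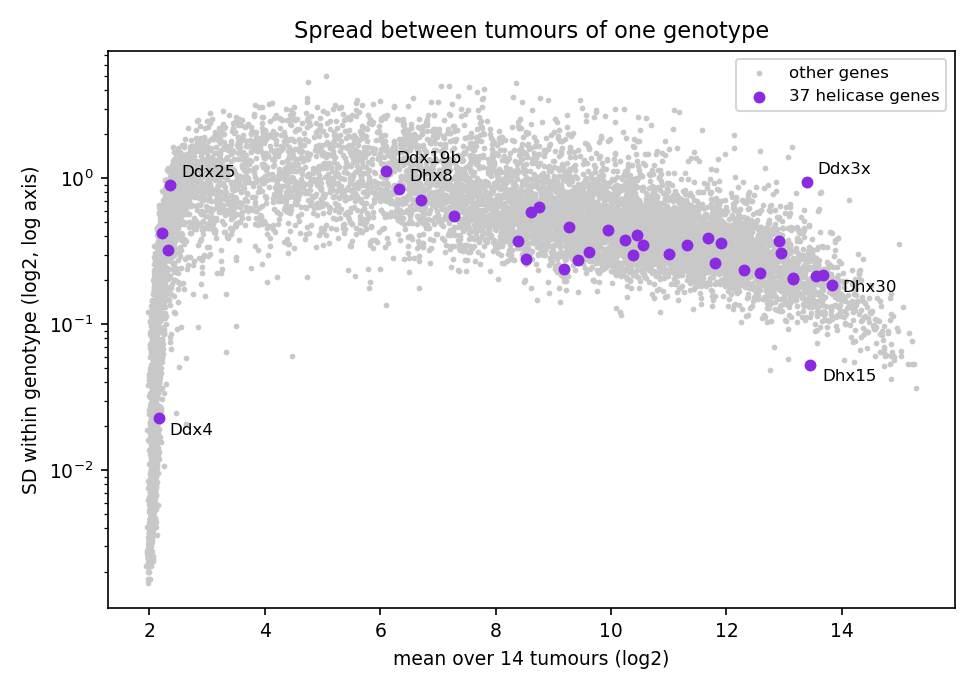
SD between tumours of one genotype (log2, on a log axis) against mean log2 level over 14 tumours, for the 37 helicase genes (purple) and all other genes (grey). Dhx15, at an SD of 0.053, lies at the lower edge of the genes of its level, and Ddx3x, at 0.94, near the upper edge.

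Set against its family, Dhx15 no longer separated the genotypes. The log2 level of Dhx15 minus the median of the other 36 members was 3.23 ± 0.33 (SD, n = 5) in Hif1a+/+, 3.22 ± 0.20 (SD, n = 4) in Hif1aKI/+ and 3.13 ± 0.16 (SD, n = 5) in Hif1a+/- tumours, with overlapping ranges of 2.85 to 3.59, 2.99 to 3.43 and 2.98 to 3.37. The family median supplied most of this spread, with SDs of 0.35, 0.17 and 0.15 in the same order against 0.074, 0.028 and 0.039 for Dhx15. The mean of the family median also fell in the order of the Dhx15 means, at 10.35, 10.25 and 10.15. Its differences from Hif1a+/+ were -0.20 in Hif1a+/- and -0.10 in Hif1aKI/+ tumours, and these are taken off the Dhx15 differences on this scale. The difference between Hif1a+/- and Hif1a+/+ was -0.095 on this scale, and -0.25 when the family was measured by the median deviation of its expressed members from their own means, an alternative added after the data were seen. Single tumours moved the first value between -0.19, without Hif1a+/+ tumour 3, and -0.0044, without Hif1a+/+ tumour 2, and it was -0.24 with only genes of a mean of at least 5 and -0.053 after quantile normalization. The median member difference was -0.093 for Hif1a+/- and -0.017 for Hif1aKI/+, each against Hif1a+/+, and -0.090 for Hif1a+/- against Hif1aKI/+. Leaving out 1 tumour gave -0.11 to -0.027 (highest without Hif1a+/+ tumour 3), -0.074 to 0.013 (without Hif1a+/+ tumours 2 and 4) and -0.096 to -0.047 (highest without Hif1aKI/+ tumour 3), so the middle one had no stable sign. With averaged probe sets the first was -0.011. Over all genes the same medians were -0.0038, -0.0024 and -0.0012. Of the 37 members 22, 22 and 26 were lower in these 3 comparisons (59.5%, 59.5% and 70.3%), against 53.8%, 52.3% and 53.1% of all genes.

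Few of the 37 members separated the genotypes, and the share over all genes is given beside each count. For Hif1a+/- against Hif1a+/+, the contrast used to choose Dhx15, 1 of 37 members had an adjusted p below 0.05, Dhx15 itself (0.0499 in limma), where 0.0195% of all genes did, and nothing is read from that count. The call ended in each of 14 fits that left out 1 tumour (adjusted p of 0.0636 to 0.228 in limma), and with arrays centred on their medians, quantile normalization or only the groups compared. In the same contrast 6 of 37 members (16.2%) had an unadjusted p below 0.05, namely Dhx15, Ddx10, Ddx49, Ddx54, Dhx36 and Dhx40, where 7.94% of all genes did. The groups did not overlap, with Hif1a+/- lower, for 3 of 37 members (8.11%), Ddx10, Ddx54 and the chosen Dhx15, where 0.741% of all genes showed that. For Hif1aKI/+ against Hif1a+/+, limma called 0 members, as it called 0% of all genes, and 2 members (5.41%), Dhx15 and Dhx40, had an unadjusted p below 0.05 where 4.35% of all genes did. Dhx15 was the 1 member without overlap, with Hif1aKI/+ lower, where 0.878% of genes were. For Hif1a+/- against Hif1aKI/+, limma again called 0 members and 0% of genes, and Dhx15 was the 1 member (2.70%) with an unadjusted p below 0.05, where 3.06% of all genes had one. It was also the 1 member without overlap, where 0.439% of genes were lower without overlap. No member was higher without overlap in any of the 3 comparisons, where 75, 90 and 24 of all 10254 genes were, so nothing is read from that.

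**Figure D3:**
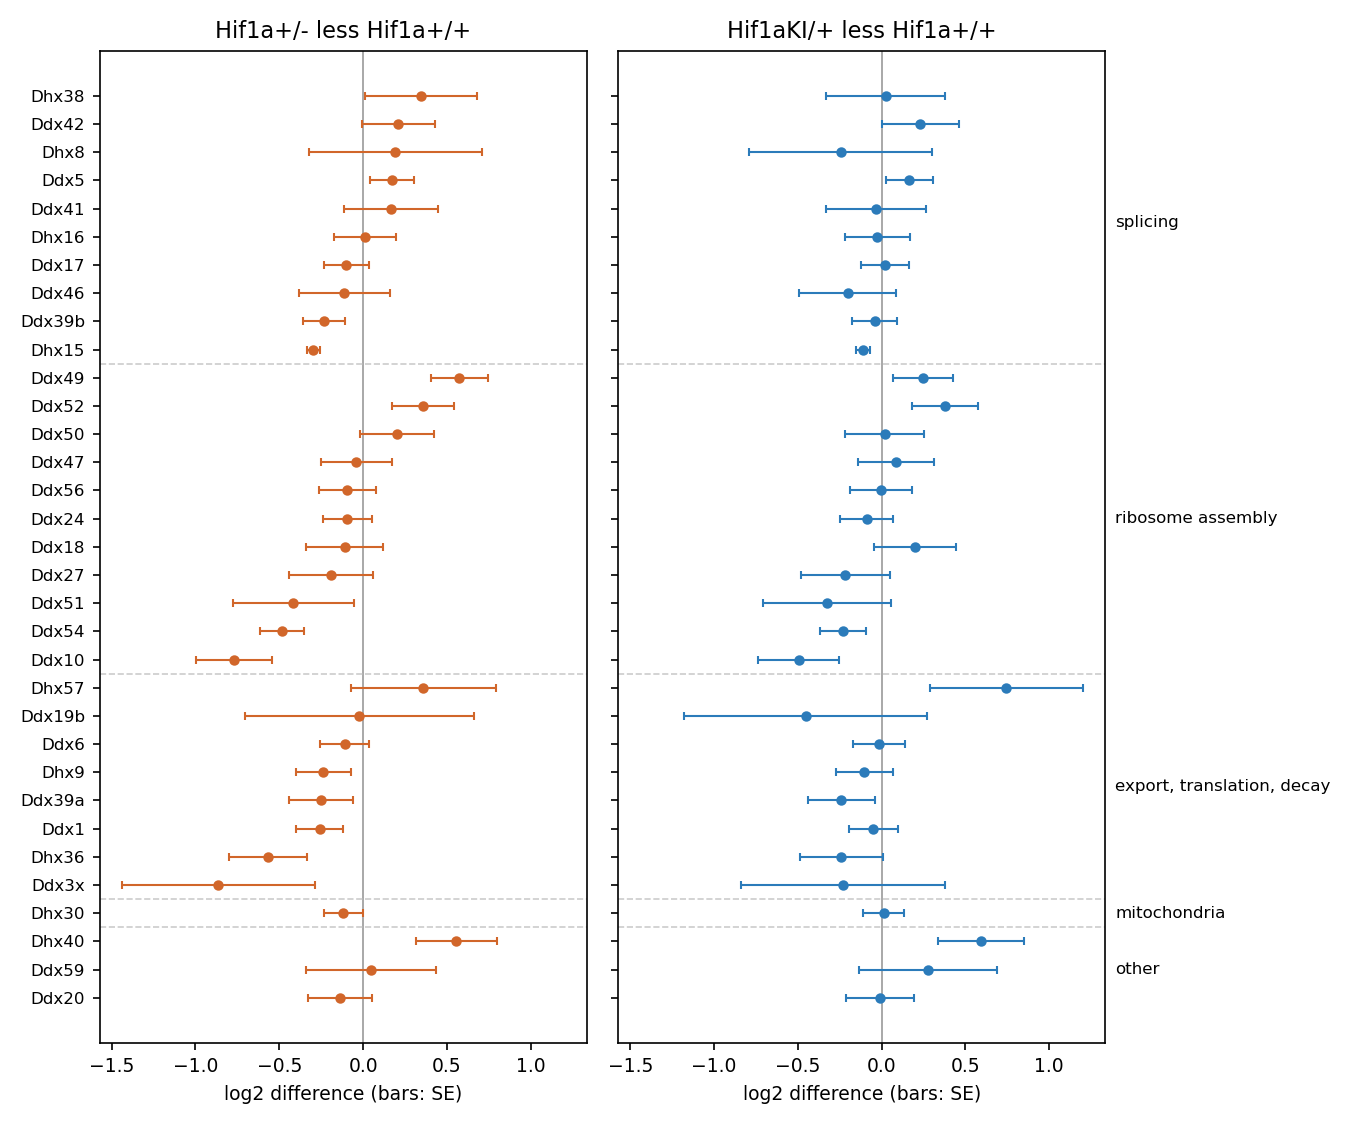
Log2 differences of the 33 members above 4.84, Hif1a+/- less Hif1a+/+ (left) and Hif1aKI/+ less Hif1a+/+ (right), with bars of 1 SE and members grouped by role. Both panels share the Hif1a+/+ arrays; Dhx15 has the shortest bars, and Ddx3x and Ddx19b have long ones.

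Since the mice differed in Hif1a, the 250 bases upstream of each start site were searched on both strands for ACGTG and GCGTG, the cores of the hypoxia response element, and for CACGTG, the E-box, which contains ACGTG. RefSeq promoters of build GRCm38.p6 matched 34 of the 37 members, with 44 promoters, and Ddx39a, Ddx6 and Dhx38 were unmatched. ACGTG or GCGTG occurred in 26 of 44 promoters (59.1%) against 38.6% of all 32851 promoters of the same length. ACGTG alone was in 29.5% against 16.6%, GCGTG in 45.5% against 28.2%, and CACGTG in 9.1% against 6.0%. Median GC content was 56.6% in members' promoters and 52.4% in all. Both cores contain CG, and a match is a description of letters, not a site. GCGTG was added to the search after the tables were seen.

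The promoters of Dhx15 and of the 3 members whose values stand out below are shown 5′ to 3′ on the gene's strand, with matches to either hypoxia core, read on either strand, in capitals. Dhx15 (chr5:52190547-52190796, minus strand) has 3 GCGTG matches, all near the start site. Ddx3x (chrX:13280772-13281021, plus strand) has 2 ACGTG matches, Ddx10 (chr9:53248113-53248362, minus strand) has 2 GCGTG matches, and Ddx54 (chr5:120612880-120613129, plus strand) has 0.
Dhx15: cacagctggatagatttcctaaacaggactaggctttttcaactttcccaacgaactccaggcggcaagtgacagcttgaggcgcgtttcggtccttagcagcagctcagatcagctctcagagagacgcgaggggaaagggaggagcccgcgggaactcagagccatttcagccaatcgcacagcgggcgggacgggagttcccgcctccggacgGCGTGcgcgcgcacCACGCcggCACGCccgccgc
Ddx3x: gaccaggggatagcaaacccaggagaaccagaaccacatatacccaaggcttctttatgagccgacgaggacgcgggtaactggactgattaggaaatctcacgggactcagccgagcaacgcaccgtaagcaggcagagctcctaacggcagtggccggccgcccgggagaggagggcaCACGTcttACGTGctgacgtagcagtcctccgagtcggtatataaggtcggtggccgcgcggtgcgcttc
Ddx10: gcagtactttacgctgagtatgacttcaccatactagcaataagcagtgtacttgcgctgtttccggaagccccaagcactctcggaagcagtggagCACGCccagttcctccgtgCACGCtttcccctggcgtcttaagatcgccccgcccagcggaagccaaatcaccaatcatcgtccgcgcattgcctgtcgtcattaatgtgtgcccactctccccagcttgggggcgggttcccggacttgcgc
Ddx54: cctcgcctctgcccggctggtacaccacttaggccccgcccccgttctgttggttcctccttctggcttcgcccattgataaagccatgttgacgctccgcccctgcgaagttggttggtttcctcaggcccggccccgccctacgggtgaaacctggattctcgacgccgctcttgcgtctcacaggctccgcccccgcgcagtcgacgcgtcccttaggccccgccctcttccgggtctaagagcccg
Ddx10 and Ddx54, both lower in all Hif1a+/- than in all Hif1a+/+ tumours at the probe set used, thus had 2 and 0 matches in this window.

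Among the splicing helicases, 10 were measured, and 4, 6 and 4 of them were lower for Hif1a+/- against Hif1a+/+, Hif1aKI/+ against Hif1a+/+ and Hif1a+/- against Hif1aKI/+, with median differences of 0.089, -0.030 and 0.022. Dhx16, which remodels the spliceosome before the first catalytic step, differed by 0.012 (SE 0.18) for Hif1a+/- and by -0.025 (SE 0.20) for Hif1aKI/+, each against Hif1a+/+. Dhx38, which acts between the catalytic steps, differed by 0.35 (SE 0.33) and 0.025 (SE 0.36). Ddx46, which proofreads branch site recognition by the U2 particle, differed by -0.11 (SE 0.27) and -0.20 (SE 0.29). For Hif1a+/- the other Ddx46 probe sets had the opposite sign, at 0.097 (SE 0.39) and 0.20 (SE 0.46). Ddx39b, an ATPase of early spliceosome assembly and of mRNA export, differed by -0.23 (SE 0.13) and -0.042 (SE 0.13). Ddx41 and Ddx42, both spliceosome-associated, differed by 0.17 (SE 0.28) and 0.21 (SE 0.22) in Hif1a+/- tumours. None of these differences passed the test.

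Dhx8, which releases spliced mRNA from the spliceosome, varied between tumours of one genotype with an SD of 0.84. It stood at 4.99, 6.00, 7.12, 7.53 and 5.96 in Hif1a+/+, at 5.59, 5.42, 6.75 and 6.56 in Hif1aKI/+ and at 6.43, 6.35, 6.01, 5.94 and 7.83 in Hif1a+/- tumours. The highest value was that of Hif1a+/- tumour 5, and each genotype spanned more than 1 log2 unit.

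Ddx5 and Ddx17 are close paralogs that act in splicing, transcription and microRNA processing, and with Dhx30 they are given in full for their high mean signal. Ddx5 had 13.25, 13.34, 13.62, 13.51 and 13.49 in Hif1a+/+, 13.45, 13.69, 13.93 and 13.35 in Hif1aKI/+ and 13.63, 13.41, 13.44, 13.61 and 13.98 in Hif1a+/- tumours. Ddx17 had 13.59, 13.76, 13.58, 13.95 and 13.67, then 13.62, 13.67, 13.93 and 13.70, then 13.83, 13.53, 13.41, 13.26 and 14.001 in the same genotypes. The genotypes overlapped for both genes, and Hif1a+/- tumour 5 was the highest of all 14 for each. The differences from Hif1a+/+ were 0.17 (SE 0.13) in Hif1a+/- and 0.17 (SE 0.14) in Hif1aKI/+ for Ddx5, and -0.10 (SE 0.13) and 0.019 (SE 0.14) for Ddx17. The probe sets of Ddx5 disagreed in sign in every comparison, and those of Ddx17 for both comparisons of Hif1a+/-.

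The ribosome assembly helicases held the members of smallest unadjusted p besides Dhx15 for Hif1a+/- against Hif1a+/+, with differences in both directions. Of 11 measured members, 8, 6 and 8 were lower in the 3 comparisons in the same order, with median differences of -0.094, -0.0038 and -0.090, and none passed the test. Ddx10 works on the precursor of the small ribosomal subunit. It had 8.81, 8.58, 8.85, 8.99 and 8.82 in Hif1a+/+, 7.38, 8.52, 8.84 and 8.54 in Hif1aKI/+ and 7.92, 8.15, 7.88, 8.38 and 7.88 in Hif1a+/- tumours. All Hif1a+/- values lay below all Hif1a+/+ values, and Hif1aKI/+ tumour 1 was the lowest of all. Ddx10 differed by -0.77 (SE 0.23) for Hif1a+/- and by -0.49 (SE 0.24) for Hif1aKI/+, each against Hif1a+/+, and the latter had an adjusted p of 0.984 in limma and came to -0.18 without Hif1aKI/+ tumour 1. Its second probe set gave -0.38 (SE 0.23) and -0.52 (SE 0.24). There the groups overlapped, with Hif1a+/- values of 7.20 to 8.24 and Hif1a+/+ values of 7.93 to 8.53. Between Hif1a+/- and Hif1aKI/+ the second probe set gave 0.15 (SE 0.24), against -0.28 (SE 0.24) at the first.

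Ddx54, a nucleolar helicase of large subunit assembly, had the same ordering of means as Dhx15 but with overlap. The probe set used is of a type (_x_at) that can also bind other transcripts. Its values were 13.20, 13.26, 13.41, 13.46 and 13.61 in Hif1a+/+, 13.18, 13.05, 12.94 and 13.47 in Hif1aKI/+ and 12.64, 12.68, 13.03, 13.11 and 13.07 in Hif1a+/- tumours. The Hif1a+/- and Hif1a+/+ groups did not overlap, and the Hif1aKI/+ tumours overlapped both. The differences were -0.48 (SE 0.13) for Hif1a+/- and -0.23 (SE 0.14) for Hif1aKI/+, each against Hif1a+/+, and -0.26 (SE 0.14) between Hif1a+/- and Hif1aKI/+, which came to -0.15 without Hif1aKI/+ tumour 5. At its second probe set the first 2 were -0.68 (SE 0.23) and -0.51 (SE 0.24), and Hif1a+/- values of 9.17 to 9.90 again lay below Hif1a+/+ values of 10.02 to 10.45.

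Ddx49, of small subunit assembly, went the other way. It had 9.35, 8.998, 9.33, 9.44 and 8.66 in Hif1a+/+, 9.25, 9.34, 9.31 and 9.71 in Hif1aKI/+ and 9.79, 9.80, 9.31, 9.71 and 10.04 in Hif1a+/- tumours. Only Hif1a+/- tumour 3 lay within the Hif1a+/+ range. Ddx49 differed by 0.57 (SE 0.17) for Hif1a+/- and 0.25 (SE 0.18) for Hif1aKI/+, each against Hif1a+/+, and the first came to 0.32 when averaged with its second probe set, which was below 4.84. Ddx52, also of small subunit assembly, had 10.68, 10.47, 10.85, 11.05 and 10.80 in Hif1a+/+, 11.01, 11.07, 11.45 and 11.06 in Hif1aKI/+ and 10.50, 11.21, 10.94, 11.47 and 11.52 in Hif1a+/- tumours. Hif1aKI/+ values were above 4 of the 5 Hif1a+/+ values, and the difference of 0.38 (SE 0.20) had an adjusted p of 0.984 in limma.

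The other ribosome assembly members overlapped between all genotypes. Ddx51 ran from 7.41 to 9.36 over the 14 tumours and differed by -0.42 (SE 0.36) and -0.33 (SE 0.38) from Hif1a+/+ in Hif1a+/- and Hif1aKI/+ tumours. Ddx27 differed by -0.19 (SE 0.25) and -0.22 (SE 0.27), and Ddx18 by -0.11 (SE 0.23) and 0.20 (SE 0.24). Ddx24, Ddx47, Ddx50 and Ddx56 differed by -0.094, -0.039, 0.20 and -0.093 in Hif1a+/- and by -0.090, 0.084, 0.019 and -0.0038 in Hif1aKI/+ tumours.

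Of the 8 members in export, translation and decay, 7 were lower in each of the 3 comparisons, with medians of -0.24, -0.17 and -0.17, and none passed the test. Ddx3x showed the largest difference of any member for Hif1a+/- against Hif1a+/+, -0.86 (SE 0.58), and a single tumour carried it. Ddx3x had 13.72, 13.92, 13.97, 13.78 and 13.48 in Hif1a+/+, 13.91, 12.88, 13.69 and 13.69 in Hif1aKI/+ and 13.67, 13.48, 13.46, 10.24 and 13.69 in Hif1a+/- tumours. Hif1a+/- tumour 4 stood far below all others, and Hif1aKI/+ tumour 3 was the next lowest. Without Hif1a+/- tumour 4 the difference from Hif1a+/+ came to -0.20, and that from Hif1aKI/+ turned from -0.63 (SE 0.61) to 0.034. Without Hif1aKI/+ tumour 3 the difference of Hif1aKI/+ from Hif1a+/+ moved from -0.23 (SE 0.61) to -0.012, without Hif1aKI/+ tumour 1 to -0.35, and it was 0.055 with a Y-linked level as covariate.

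All 3 Ddx3x probe sets recorded the low value in Hif1a+/- tumour 4. They read 10.24, 8.40 and 7.01 there, against ranges of 12.88 to 13.97, 11.58 to 13.11 and 10.53 to 12.54 in the other 13 tumours. That is 10.9-fold, 21.1-fold and 34.4-fold below the median of the other tumours. Hif1aKI/+ tumour 3 was the lowest of the other 13 at each probe set, with 12.88, 11.58 and 10.53, or 1.75-fold, 2.32-fold and 2.99-fold below that median. All 3 probe sets were thus lower in the same 2 tumours, although each remained above 4.84.

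**Figure D4:**
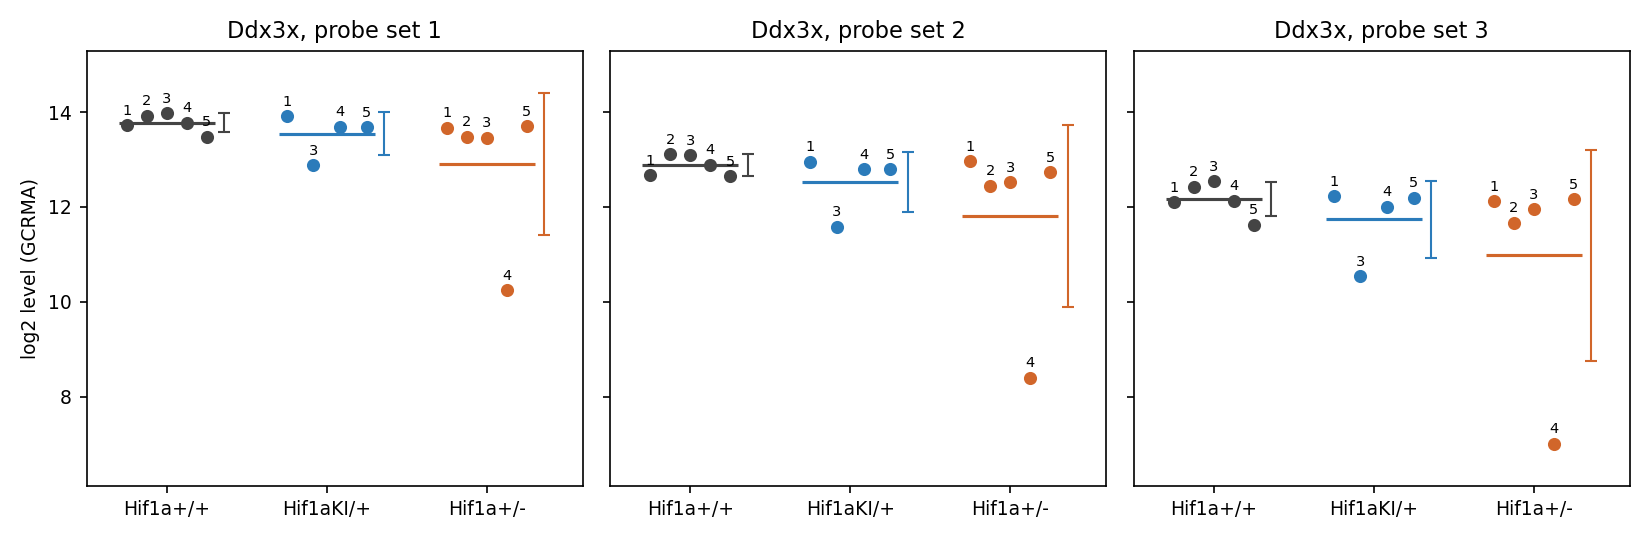
Log2 level of Ddx3x by each of its 3 probe sets in the 14 tumours. Numbered points are tumours, horizontal lines are genotype means and bars are SD; Hif1a+/- tumour 4 is lowest in every panel, at 10.24, 8.40 and 7.01, followed by Hif1aKI/+ tumour 3.

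The genes next to Ddx3x on the X chromosome were not low in Hif1a+/- tumour 4. Usp9x, the nearest measured gene on one side, read 10.77 against 9.89 to 11.65 in the other tumours, and Cask on the other side read 8.57 against 4.40 to 8.57. Among the 5 measured genes on each side none was below the range of the other 13 tumours. Hif1a+/- tumour 4 had Y-linked Eif2s3y at 12.32 and Xist, the RNA of the inactive X chromosome, at 2.01, and Hif1aKI/+ tumour 3 had 12.42 and 2.05. The 4 tumours with Xist above 11 had Ddx3x levels of 13.67, 13.91, 13.97 and 13.48. Among 3702 genes with a mean of at least 10, 15 had a lowest tumour that lay at least as far below the next as the 2.64 of Ddx3x, and in 4 of those, Ddx3x included, that tumour was Hif1a+/- tumour 4. The Y-linked copy Ddx3y was not analysed here, and whether its RNA adds to these probe sets was not tested.

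Ddx1, a helicase of the tRNA ligase complex, had 12.68, 12.87, 12.82, 12.72 and 12.35 in Hif1a+/+, 12.23, 12.75, 12.70 and 12.87 in Hif1aKI/+ and 12.38, 12.30, 12.62, 12.64 and 12.20 in Hif1a+/- tumours. Hif1a+/- tumours lay below 4 of the 5 Hif1a+/+ tumours, and the difference from Hif1aKI/+ was -0.21 (SE 0.15), or -0.35 without Hif1aKI/+ tumour 1 and -0.13 without Hif1aKI/+ tumour 5. Dhx36, which unwinds G-quadruplexes, had 10.27, 10.56, 10.88, 10.79 and 10.05 in Hif1a+/+, 9.93, 10.43, 10.27 and 10.44 in Hif1aKI/+ and 9.40, 9.57, 10.50, 9.89 and 10.33 in Hif1a+/- tumours. It differed by -0.57 (SE 0.23) and -0.24 (SE 0.25) from Hif1a+/+ in Hif1a+/- and Hif1aKI/+ tumours, with overlap in both cases.

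Ddx19b, which strips export factors from mRNA at the nuclear pore, varied most within a genotype, with an SD of 1.12. It had 5.42, 5.42, 7.03, 8.04 and 5.30 in Hif1a+/+, 5.26, 6.08, 6.56 and 5.26 in Hif1aKI/+ and 6.81, 5.83, 4.18, 7.005 and 7.28 in Hif1a+/- tumours. The lowest and the highest values came from different genotypes but the ranges overlapped widely, and the value of Hif1a+/- tumour 3 was below the boundary. Dhx57 ranged from 5.22 to 7.83 and differed by 0.36 (SE 0.43) and 0.74 (SE 0.46). Dhx9, a helicase of nuclear double-stranded RNA, and Ddx6, of translational repression and decapping, differed by -0.24 (SE 0.16) and -0.11 (SE 0.15) in Hif1a+/- tumours. Ddx39a, the paralog of Ddx39b, differed by -0.25 (SE 0.19) in Hif1a+/- and -0.24 (SE 0.20) in Hif1aKI/+ tumours.

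Dhx30, which serves the mitochondrial ribosome, had 13.79, 13.57, 14.15, 13.89 and 13.91 in Hif1a+/+, 13.73, 14.01, 13.98 and 13.79 in Hif1aKI/+ and 13.57, 13.61, 13.98, 13.66 and 13.92 in Hif1a+/- tumours. The genotypes overlapped throughout, and the differences from Hif1a+/+ were -0.12 (SE 0.12) and 0.012 (SE 0.12) in Hif1a+/- and Hif1aKI/+ tumours.

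Dhx40 was the other member with an unadjusted p below 0.05 in Hif1aKI/+ tumours. It had 11.23, 11.27, 11.64, 11.53 and 10.88 in Hif1a+/+, 11.89, 11.45, 12.52 and 11.74 in Hif1aKI/+ and 11.18, 12.06, 11.74, 12.12 and 12.23 in Hif1a+/- tumours. It was higher than every Hif1a+/+ value in 3 of 4 Hif1aKI/+ and in 4 of 5 Hif1a+/- tumours. The differences were 0.59 (SE 0.26; unadjusted p 0.039, adjusted p 0.984 in limma) for Hif1aKI/+ and 0.56 (SE 0.24) for Hif1a+/-, both against the same Hif1a+/+ arrays. The first was 0.39 without Hif1aKI/+ tumour 4. Ddx20, of the complex that assembles small nuclear ribonucleoproteins, differed by -0.14 (SE 0.19) and -0.012 (SE 0.20), and Ddx59 by 0.048 (SE 0.39) and 0.28 (SE 0.41), in Hif1a+/- and Hif1aKI/+ tumours.

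Members below the boundary stayed near 2 in nearly all tumours. Ddx4 ran from 2.13 to 2.20. Ddx25 read 1.99 to 2.03 in 11 tumours, 2.36 in Hif1a+/+ tumour 1, 4.26 in Hif1a+/- tumour 2 and 4.47 in Hif1aKI/+ tumour 4. Ddx60 read 3.68 in Hif1aKI/+ tumour 4 and at most 2.29 elsewhere, and Dhx32 reached 3.26 in Hif1a+/- tumour 4. All of these values were below 4.84. Hif1aKI/+ tumour 4, with the highest Ddx60 value, also had the highest mean of 13 interferon-induced genes, 9.06, against 6.18 to 8.90 in the other tumours. Hif1a+/- tumour 2, with a mean of 8.90 on that list, had Ddx60 at 2.08. That list was higher for 13 of 13 genes in Hif1a+/- and 12 of 13 in Hif1aKI/+ tumours than in Hif1a+/+, with means of 6.70 to 8.90, 7.20 to 9.06 and 6.18 to 7.81 respectively and Irf7 and Stat2 below the boundary; its part in the values of Ddx60 was not tested.

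**Figure D5:**
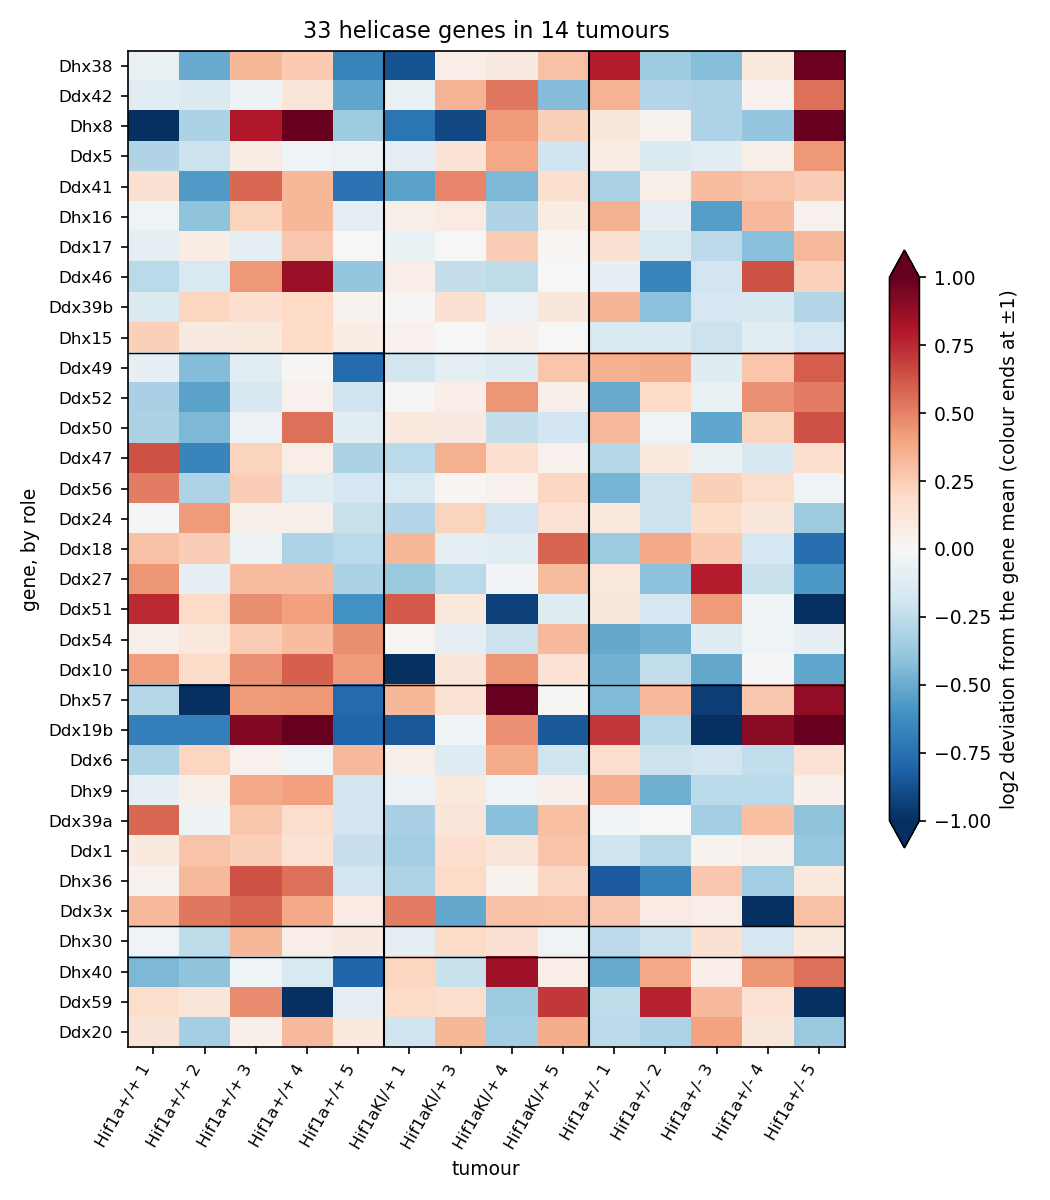
Deviation of each of the 33 members above 4.84 from its own mean (log2, colour ends at ±1) in the 14 tumours, with members grouped by role. Dhx15 has pale colours, above its mean in all Hif1a+/+ and below it in all Hif1a+/- tumours, and Hif1a+/- tumour 5 holds the lowest value of 7 members and the highest of 8.

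Extremes of many members fell in a single tumour, Hif1a+/- tumour 5. Each other tumour held the lowest value of at most 4 members and the highest value of at most 5. The same count was not made over all genes, so nothing particular to the helicases is read from it. Hif1a+/- tumour 5 held the lowest value of 7 and the highest value of 8 of the 33 members above the boundary. It also had the lowest mean of 27 cell cycle genes, 10.84 against 11.51 to 11.85 in the other tumours. It likewise had the lowest mean of 38 non-helicase ribosome assembly proteins, 10.07 against 10.68 to 11.38. The part of these levels in the helicase values was not tested. The cell cycle genes were lower for 24 of 27 in Hif1a+/- than in Hif1a+/+ tumours, against 53.8% of all genes, with none below the boundary. Hif1a+/- tumours 1 to 4 had cell cycle means of 11.75, 11.54, 11.51 and 11.77, against 11.54 to 11.85 in Hif1a+/+ tumours.

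Stromal marker levels differed between genotypes in the same tumours. Of 13 fibroblast and matrix genes, 13 were lower in Hif1a+/- than in Hif1a+/+ tumours, with means of 7.85 to 8.79 and 9.02 to 10.41 per tumour and 8.37 to 9.40 in Hif1aKI/+ tumours, and Lum was below the boundary. Of 13 macrophage genes 11 were lower in Hif1a+/-, with means of 8.44 to 9.38, against 9.33 to 10.65 in Hif1a+/+ and 8.63 to 9.98 in Hif1aKI/+ tumours, and Cd163 was below the boundary. Thymic epithelial genes went the other way, with 6 of 8 higher in Hif1a+/- and means of 5.40 to 7.25, 6.21 to 7.24 and 3.19 to 6.89 in Hif1a+/-, Hif1aKI/+ and Hif1a+/+ tumours, Cldn3, Cldn4 and Krt14 being below the boundary. Of 5 adipocyte genes 5 were lower in Hif1a+/- and 5 in Hif1aKI/+ than in Hif1a+/+ tumours, with medians of -1.72 and -1.61 and means of 4.61 to 5.74, 4.77 to 6.26 and 4.64 to 9.34 in the same order of genotypes, Adipoq and Retn being below the boundary. Of the 14 T cell genes 10 and 12 were higher in Hif1a+/- and Hif1aKI/+ tumours, with medians of 0.12 and 0.13. On average the fibroblast, macrophage and adipocyte means thus each ranked the genotypes in the order of the Dhx15 means. The mean of 8 endothelial genes, 5 of them below the boundary, ranked them in the same way. The part of these levels in the helicase values was not tested.

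The partners of the helicases were counted from lists of other genes. Of 45 measured spliceosome proteins (54 listed), 26, 24 and 30 were lower in the 3 comparisons, with medians of -0.058, -0.0092 and -0.041. Of 17 measured G-patch partners (24 listed), the proteins that activate DEAH helicases such as Dhx15, 6, 8 and 10 were lower, with medians of 0.056, 0.0029 and -0.056. None of either list had an adjusted p below 0.05 in limma in any comparison. In the 3 comparisons 1, 3 and 0 of the 17 G-patch genes and 3, 0 and 0 of the 45 spliceosome genes had an unadjusted p below 0.05, where 7.94%, 4.35% and 3.06% of all genes did. The G-patch genes of Hif1aKI/+ against Hif1a+/+ were Gpank1, at 1.03 (SE 0.39), Cmtr1, a cap methyltransferase, at 0.74 (SE 0.31), and Zgpat, a transcriptional repressor, at 0.71 (SE 0.28). The next was Gpatch8, at 0.51 (SE 0.31). The spliceosome genes of smallest p in that comparison were Slu7, a second-step factor, at 0.39 (SE 0.20), U2af2, which binds the polypyrimidine tract, at -0.27 (SE 0.14), Prpf31, of the U4/U6 particle, at -0.35 (SE 0.19), and Sf3a2, of the U2 particle, at -0.27 (SE 0.18).

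Ribosome assembly proteins other than helicases were lower for 31, 25 and 31 of 38 measured genes (41 listed). Their medians were -0.26, -0.071 and -0.14, against -0.094, -0.0038 and -0.090 for the 11 helicases of that role. Hif1a+/- tumour 5 had the lowest mean of these 38 genes, 10.07, and Hif1a+/- tumours 1 to 4 had 10.88, 10.95, 10.95 and 11.07. The ranges were 10.68 to 11.07 in Hif1aKI/+ and 10.76 to 11.38 in Hif1a+/+ tumours, so the genotypes overlapped. In limma 0 of the 38 had an adjusted p below 0.05, and 4, 0 and 1 had an unadjusted p below 0.05, all lower, where 7.94%, 4.35% and 3.06% of all genes did. In Hif1aKI/+ against Hif1a+/+ those of smallest p were Nolc1, a nucleolar chaperone, at -0.62 (SE 0.29), Noc4l at -0.28 (SE 0.14), Pes1 at 0.28 (SE 0.16) and Rrp12 at -0.81 (SE 0.50). Exon junction and export proteins were lower for 7, 8 and 8 of 15 (23 listed), with medians of 0.033, -0.070 and -0.018, and Thoc1, Casc3, Smg6 and Nxt1 had the smallest p, at -0.26 (SE 0.17), 0.41 (SE 0.28), 0.29 (SE 0.21) and 0.32 (SE 0.25), Smg6 being below the boundary. Other RNA helicases were lower for 5, 5 and 8 of 10 (18 listed), with Dicer1 at 0.36 (SE 0.27), Skiv2l at 0.14 (SE 0.11), Upf1 at -0.14 (SE 0.17) and Eif4a2 at 0.17 (SE 0.22), and with Skiv2l, Ighmbp2 and Mov10 below the boundary. In limma 0 of these 15 and 0 of these 10 genes had an unadjusted p below 0.05 in any comparison.

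Across the 14 tumours, after genotype means were removed, the genes whose deviations most resembled those of Dhx15 were Rnf8 (r = 0.88), Coa5 (0.85), Eif3a (0.84), Top3a (0.83) and Ivns1abp (0.83). The most similar members were Ddx49 (0.49), Dhx57 (0.48) and Ddx39a (0.46). These Pearson correlations describe 14 arrays that share their processing, and were taken as the highest of all genes.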

How the data were processed

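Total RNA of 14 tumours was amplified and biotin-labelled, and 1 Affymetrix array was hybridised per tumour. The authors deposited 1 log2 value per probe set and tumour, for which the submitters' processing notes name GCRMA, a background correction by probe sequence with normalisation between arrays, and Partek, both without versions or settings. Scanner files were not used here. Of 18264 probe sets, 16602 named 1 gene, 603 several and 1059 none, by the platform annotation. The highest-mean probe set stood for each of 10254 genes, and 19 of the 37 members had several. For 6 members, Ddx17, Ddx39a, Ddx54, Dhx30, Dhx38 and Dhx57, it was of a type (_x_at or _s_at) that can also bind other transcripts, and close paralogs are therefore uncertain.

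The fit (lmFit and eBayes of limma 3.58.1 in R 4.3.3) used all 14 arrays with a term for each genotype. Tests were two-sided, Benjamini-Hochberg adjusted over all genes, at an adjusted p of 0.05. The fit was tried on simulated independent genes with shifts in the Hif1aKI/+ arrays only. Those shifts were larger than the differences of the members, so the simulation does not show how well differences of their size are found. An SE is that of the fit and an SD is between tumours. The boundary of 4.84 was the minimum of the density of gene means between 3 and 7. Members, role lists, partner lists and marker lists were chosen with earlier results of these data known. Every member was eligible to be named. Values in every tumour are given for Dhx15, the 4 members of smallest p per comparison, members without overlap, the 4 of largest SD within genotype and the 3 of highest mean, and partner genes were the 4 of smallest p in Hif1aKI/+ against Hif1a+/+. Dhx36 was added as the remaining member with an unadjusted p below 0.05. Same-numbered tumours of different genotypes did not deviate together (13 pairs, mean correlation of residuals -0.006, range -0.11 to 0.14). Alternatives changed the level filter, scaling, moderation, array weights, arrays in the fit, probe set rule, threshold, covariates, replicate block and single arrays. Protein sequences were not used here.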

Additional observations from a re-analysis of the deposited data

Results flagged for a closer look

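In 10 of 111 groups of 4 or 5 values (37 members in 3 genotypes), 1 tumour lay far from the others of its genotype relative to their range. For normally distributed values chance gives about 1 in 20 such groups. Of the 10, 4 came from the 33 members above the boundary of 4.84 in 3 genotypes, which is not above that share. Ddx3x read 10.24 in Hif1a+/- tumour 4 against 13.46 to 13.69 in the other Hif1a+/- tumours. Dhx8 read 7.83 in Hif1a+/- tumour 5 against 5.94 to 6.43. Ddx52 read 11.45 in Hif1aKI/+ tumour 4 against 11.01 to 11.07, and Dhx16 read 10.08 there against 10.44 to 10.47. The other 6 came from the 4 members near background, where the rule also flagged small gaps, such as Ddx60 at 2.18 against 2.08 to 2.09. Ddx25 read 4.26 in Hif1a+/- tumour 2, 4.47 in Hif1aKI/+ tumour 4 and 2.36 in Hif1a+/+ tumour 1. Ddx60 read 3.68 in Hif1aKI/+ tumour 4 and 2.18 in Hif1a+/+ tumour 2, and Dhx32 read 2.77 in Hif1a+/+ tumour 3. Hif1aKI/+ tumour 4 thus held 4 of the 10.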

How the results depend on the processing

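The 1 member called for Hif1a+/- against Hif1a+/+, Dhx15, depended on the processing, and the cause was not tested. The count was 0 with genes of a mean of at least 5 only, arrays centred on their medians, quantile normalization, averaged probe sets, only the groups compared, the replicate block, a Y-linked level or a cell cycle level as covariate, and in each of the 14 fits that left out 1 tumour (0 to 0). It was 1 with trend and robust moderation, with array weights and at an adjusted p of 0.1. The Dhx15 difference itself ranged from -0.34 (centred) to -0.26 (mean of probe sets) over settings and from -0.31 to -0.27 over single omissions. Its adjusted p in limma was 0.0636 to 0.228 over the omissions and 0.125 with the replicate block, where the difference was -0.30. The adjusted p in limma was larger, at 0.466, with only genes of a mean of at least 5, 0.424 with averaged probe sets and 0.275 with the cell cycle covariate. At an unadjusted p of 0.05 the counts were 6, 2 and 1 for Hif1a+/- and Hif1aKI/+ against Hif1a+/+ and for Hif1a+/- against Hif1aKI/+, and 0 members were called in the last 2 comparisons at every other setting.

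The Ddx3x difference for Hif1aKI/+ against Hif1a+/+ turned to 0.055 with the Y-linked covariate, cause not tested. For Hif1a+/- against Hif1aKI/+ it ranged from -0.85 (without Hif1aKI/+ tumour 3) to 0.034 (without Hif1a+/- tumour 4). Centring moved the median difference of all genes by -0.047 for Hif1a+/- against Hif1a+/+ and by less in the other comparisons. Probe sets above the boundary agreed in sign for 12, 13 and 8 of 15 members in the 3 comparisons. Differences of members near the low mode are uncertain in size.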
